A study of Mus musculus with 28 samples.

Results

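Neutrophil granule proteins are a set of 9 genes, chosen by symbol from the 25251 genes of the table, and all 9 were found. Elane, Mpo, Prtn3 and Ctsg are the 4 primary granule genes, and Ltf, Camp, Ngp, Lcn2 and Chi3l3 are the 5 later granule genes. Chi3l3 stands in the table under its newer symbol Chil3, which is used here. RNA was measured in 28 libraries from the bone marrow of C57BL/6 mice aged 8 to 10 wk, which were either wild type (Flt3+/+) or homozygous for an internal tandem duplication knocked into Flt3 (Flt3 ITD/ITD), the gene of a receptor on early blood progenitors. Endothelial cells (ECs, sorted as CD45-Ter119-CD31+) and mesenchymal stromal cells (MSCs, sorted as CD45-Ter119-CD31-CD166-Sca1+) were taken from the cells lining the bone, with 5 libraries per genotype and 100 cells per library. Bone marrow mononuclear cells (MNCs), with no further sort on blood cell type stated, had 4 libraries per genotype and 200 cells per library. The mutant allele is carried by every cell of the mouse, the stromal cells included, and the sources used here state neither the sex of the mice nor whether libraries with the same number came from the same mouse.

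Neutrophils make their granule proteins in waves as they mature in the marrow. Promyelocytes fill the primary (azurophil) granules with the serine proteases neutrophil elastase, proteinase 3 and cathepsin G and with myeloperoxidase, and then stop transcribing these genes. Myelocytes and metamyelocytes next make the proteins of the specific and gelatinase granules, among them lactoferrin, the cathelicidin Camp and lipocalin 2, so that RNA for primary granule genes marks an earlier stage than RNA for the later ones. Stromal cells have no such granules, so blood cells or their RNA carried over are a possible source of granule RNA in CD45- sorted cells. Lcn2 can also be made by several non-blood cells, and the source of the RNA was not tested for any of the genes.

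The 28 libraries held between 6377013 counts in an EC library and 33880743 in another EC library, and MNC libraries held between 14260910 and 22149240. The detection floor was set at 3 counts per library, which covers counting error only. The marker Ptprc, which encodes CD45, lay between 125 and 161 RPKM (reads scaled by transcript length and library size) in the MNC libraries and at 4.57 RPKM or below in every EC and MSC library. Cdh5, an endothelial cadherin, was between 165 and 251.75 RPKM in ECs and at 1.43 or below elsewhere, and Pdgfrb, a stromal receptor, was between 11.4 and 25.0 in MSCs. Flt3 itself had 6.96, 6.74, 2.53 and 2.72 RPKM in the Flt3+/+ MNC libraries and 6.91, 14.8, 11.0 and 10.7 in the Flt3 ITD/ITD ones. The insertion is not told apart from the normal allele by gene counts, so this level does not check the genotype labels.

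In MNCs, granule genes were among the most abundant of all transcripts. Ngp, a cathelicidin-related protein of neutrophil granules, ranked 2nd of 25251 genes by mean RPKM over the 8 MNC libraries, Camp ranked 7th, Lcn2 14th, Chil3 18th and Ltf 22nd. Mpo and Elane ranked 82nd and 87th, Prtn3 429th and Ctsg 608th. Within the set the order of mean RPKM in Flt3+/+ MNCs was Ngp, Camp, Lcn2, Chil3, Ltf, Elane, Mpo, Prtn3 and Ctsg. In Flt3 ITD/ITD MNCs Ltf stood above Chil3 and Mpo above Elane. In Flt3+/+ MNCs the neighbours whose ranges overlapped were those from Lcn2 to Chil3 and Ltf and those from Elane to Mpo, Prtn3 and Ctsg. In Flt3 ITD/ITD MNCs the ranges of all neighbours in the order overlapped except those of Elane and Prtn3.

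Elane and Prtn3 lie next to each other on chromosome 10 of GRCm38, at 79886312 to 79888216 and 79879667 to 79883174, and Camp, Ngp and Ltf lie on chromosome 9. The stretches below are shown because PU.1 and C/EBP factors are textbook regulators of granule genes. The stretches all come from genes with a match to the letters given below, so they do not represent their class. Each is 120 bases of the sense strand (RefSeq promoter sequence, GRCm38.p6), from 5′ to 3′, that end just before the most upstream start of a coding transcript in RefSeq or GENCODE. The last base lies 66 bases before the RefSeq start in Elane, 54 in Prtn3, 22 in Ltf and 62 in Ngp, and capitals mark a match to the PU.1 letters GAGGAA in Elane and Prtn3 and to the C/EBP letters TTNNGNAA, on either strand, in Ltf and Ngp.
Elane, + strand, chr10:79886127-79886246: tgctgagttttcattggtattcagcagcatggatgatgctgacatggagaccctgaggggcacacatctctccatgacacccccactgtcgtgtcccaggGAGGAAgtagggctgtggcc
Prtn3, + strand, chr10:79879494-79879613: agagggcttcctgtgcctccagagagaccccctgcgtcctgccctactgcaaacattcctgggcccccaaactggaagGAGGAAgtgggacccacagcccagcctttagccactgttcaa
Ltf, + strand, chr9:111019151-111019270: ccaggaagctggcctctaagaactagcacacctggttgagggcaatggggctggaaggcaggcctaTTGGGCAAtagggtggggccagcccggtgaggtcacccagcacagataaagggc
Ngp, + strand, chr9:110419627-110419746: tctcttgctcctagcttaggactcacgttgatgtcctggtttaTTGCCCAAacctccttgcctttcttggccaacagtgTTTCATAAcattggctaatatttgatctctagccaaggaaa

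In the 200 bases before the RefSeq start, the PU.1 letters were found on either strand in 4 of the 9 genes (Elane, Prtn3, Ltf and Lcn2) and in 19.0% of 32851 promoters. The C/EBP letters were found in 3 of the 9 (Ltf, Ngp and Chil3) and in 30.0% of promoters. MYB letters (AACTG) were in 5 of the 9 and 32.1% of promoters, RUNX letters (TGTGGT) in 1 and 11.2%, and a TATA box (TATAAA) in none and 9.96%. The PU.1 letters thus stood in genes of both classes, and the C/EBP letters in later genes only. Mpo, Ctsg and Camp had neither. Whether the letters differ between the classes was not tested. A match is a description of the letters and not of a bound site.

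Genotypes were first compared in MNCs. Every primary granule gene had a higher mean and a positive log2 fold change in Flt3 ITD/ITD MNCs, as did 49.5% of all genes, and every later granule gene had a lower mean and a negative one, as did 50.5%, but none of the 9 passed edgeR's quasi-likelihood test at an adjusted p below 0.1. Of all 13926 genes tested 2 passed, or 0.0144%, both higher in Flt3 ITD/ITD. At an unadjusted p below 0.05, 2 of the 9 (Mpo and Elane) were higher, against 5.39% of all genes, and none was lower, against 5%. Because each library is a mixture of marrow cells, fewer cells of a stage and less RNA per cell cannot be told apart in any of these values. The p-values measure the spread between libraries.

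Mpo, the peroxidase that makes hypochlorous acid, had 345, 772, 299.7 and 603 RPKM in Flt3+/+ libraries 1 to 4 and 1516, 626, 2119.7 and 2188 in Flt3 ITD/ITD libraries 1 to 4. Of the Flt3 ITD/ITD libraries 3 lay above every Flt3+/+ library, and the remaining one lay inside their range. The means were 505 ± 223 and 1612 ± 724 RPKM (SD, n = 4 each, exact permutation test, two-sided, p = 0.0571, where 0.0286 is the smallest p that 4 against 4 can give). The fitted log2 fold change was 1.48 with a standard error of 0.42 (edgeR adjusted p = 0.397). This was the only granule gene called by another tool, with an adjusted p of 0.0297 by DESeq2, which called 1.74% of 14642 genes as higher, and of 0.0927 by edgeR's exact test, which called 0.754% as higher. Without Flt3+/+ library 2 or without Flt3 ITD/ITD library 2 the genotypes no longer overlapped. The share of all genes without overlap in those settings is not given here, so this only describes the values.

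Elane, which encodes neutrophil elastase, had 652, 1006, 149 and 576 RPKM in the 4 Flt3+/+ libraries and 2006, 615, 1578 and 1461 in the Flt3 ITD/ITD libraries. Again 3 of the 4 Flt3 ITD/ITD libraries stood above all Flt3+/+ ones and library 2 did not. The log2 fold change was 1.12 with a standard error of 0.49 (edgeR adjusted p = 0.471, exact permutation p = 0.0857). Prtn3, which encodes proteinase 3, had 324, 228, 61.0 and 79.5 RPKM in Flt3+/+ MNCs against 373, 176, 356 and 266 in Flt3 ITD/ITD MNCs. Ctsg, which encodes cathepsin G, had 139.7, 198, 50.9 and 46.0 against 194, 90.3, 273 and 259. For both genes the lowest values were those of Flt3+/+ libraries 3 and 4, and Flt3+/+ libraries 1 and 2 lay among the Flt3 ITD/ITD values. Their log2 fold changes were 0.66 (standard error 0.45, edgeR adjusted p = 0.636) and 0.79 (standard error 0.45, adjusted p = 0.55).

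**Figure D1:**
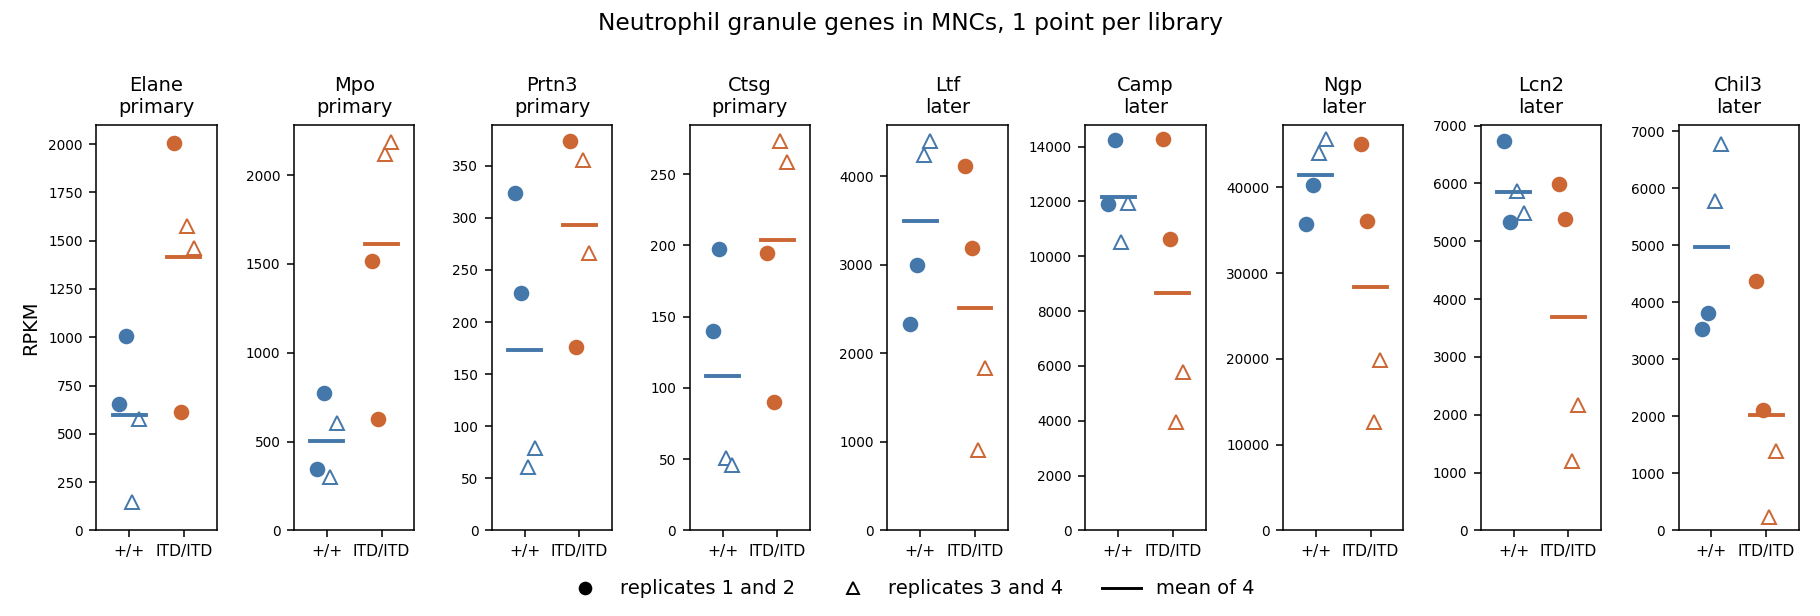
RPKM of the 9 granule genes in MNCs on linear axes that start at 0, with Flt3+/+ libraries in blue and Flt3 ITD/ITD libraries in orange. Filled circles are replicates 1 and 2, open triangles replicates 3 and 4, and lines the mean of 4 libraries; the open orange triangles lie at the bottom of every later granule panel, down to 231 RPKM for Chil3.

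Among the later genes, Ngp had 35753, 40307, 44037 and 45628 RPKM in Flt3+/+ libraries 1 to 4 and 45102, 36093, 12598 and 19873 in Flt3 ITD/ITD libraries 1 to 4. Flt3 ITD/ITD libraries 1 and 2 lay within the Flt3+/+ range and libraries 3 and 4 well under it. Camp, the precursor of the antimicrobial peptide CRAMP, had 11915, 14244, 10521 and 11932 in Flt3+/+ against 14271, 10639, 3949 and 5785 in Flt3 ITD/ITD MNCs. Lcn2, which binds bacterial siderophores, had 6734, 5341, 5869 and 5483 against 5991, 5377, 1209 and 2176. Ltf, the iron-binding lactoferrin, had 2336, 2993, 4246 and 4405 against 4112, 3194, 911 and 1832. In each of these genes 2 Flt3 ITD/ITD libraries, numbers 3 and 4, lay below all Flt3+/+ libraries. The log2 fold changes were -0.75 for Ngp, -0.67 for Camp, -0.86 for Lcn2 and -0.71 for Ltf, with standard errors of 0.40, 0.38, 0.47 and 0.48 and edgeR adjusted p-values between 0.526 and 0.629.

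Chil3, a chitinase-like protein of myeloid cells, had the largest log2 fold change in size of the 5 later genes. It had 3526, 3817, 5778 and 6782 RPKM in Flt3+/+ libraries and 4368, 2107, 231 and 1386 in Flt3 ITD/ITD libraries, of which 3 lay under all Flt3+/+ libraries. The log2 fold change was -1.53 with a standard error of 0.72 (edgeR adjusted p = 0.493, exact permutation p = 0.0857). The paralog Chil4 was listed at 7.92 to 8.60% of the RPKM of Chil3 in every MNC library. The genes are close to identical in sequence and reads without a unique position had been removed, so the levels of both are uncertain.

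As a share of all counts of a library, the 4 primary genes took 0.191, 0.332, 0.102 and 0.221% in Flt3+/+ MNCs against 0.629, 0.243, 0.752 and 0.749% in Flt3 ITD/ITD MNCs. The 5 later genes took 6.66, 7.44, 8.37 and 8.81% against 8.45, 6.51, 2.09 and 3.56%. Flt3 ITD/ITD library 1 was high for the primary class and within the Flt3+/+ range for the later class. Library 2 resembled the Flt3+/+ libraries in both, and libraries 3 and 4 were high for the primary and low for the later class. The summed RPKM of the later genes was 41.3, 30.3, 126 and 56.9 times that of the primary genes in Flt3+/+ libraries, and 18.1, 38.1, 4.37 and 7.44 times in Flt3 ITD/ITD libraries.

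**Figure D2:**
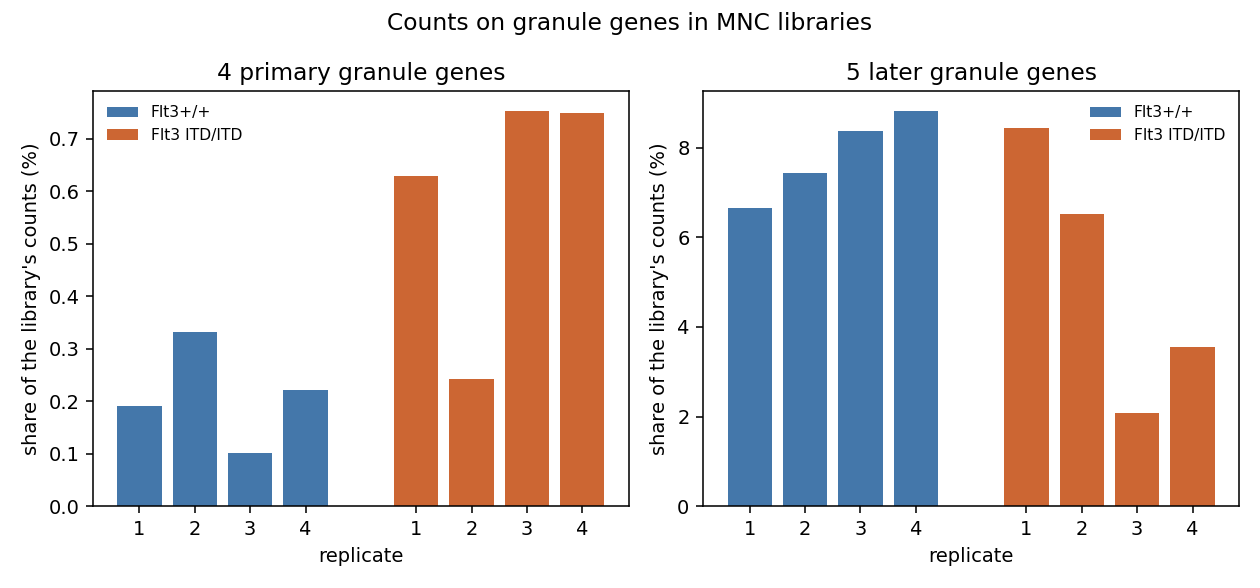
Share of the counts of each MNC library on the 4 primary (left) and 5 later (right) granule genes, in percent, 1 bar per library, with Flt3+/+ libraries in blue and Flt3 ITD/ITD libraries in orange. The primary share reached 0.752% and the later share was lowest, at 2.09%, in the same Flt3 ITD/ITD library, number 3.

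Over the 8 MNC libraries the later genes varied together, with pairwise Pearson correlations of log2(RPKM + 1) from 0.873 to 0.967 over 10 pairs. The primary genes had correlations from 0.617 to 0.909 over 6 pairs. Between the classes all 20 correlations were negative, from -0.76 to -0.261. These values describe the same 8 libraries, which share their depth and cell mixture. Of 12027 other genes the ones most like the primary class were Ms4a3, a membrane protein of granulocyte-monocyte progenitors (r = 0.98), Glrx3, LOC100861978, Mir1892 and Atg10 (r from 0.973 to 0.977). Those most like the later class were Serpinb1a, an inhibitor of neutrophil proteases (r = 0.993), 6430548M08Rik, Atg4b, Orm1 and Serpinb1b (r from 0.98 to 0.985).

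The lowest later granule values stood in Flt3 ITD/ITD libraries 3 and 4. Flt3+/+ libraries 3 and 4 had the highest later shares of their genotype, at 8.37 and 8.81% of counts. Library numbers separated another measure in both genotypes. Fos, an immediate-early gene, had 323 and 239 RPKM in Flt3+/+ MNC libraries 1 and 2 and 10.4 and 8.06 in libraries 3 and 4, and 317 and 142 against 15.6 and 4.24 in Flt3 ITD/ITD MNCs. The 8 immediate-early genes summed to between 294 and 475 RPKM in the 4 libraries numbered 1 or 2 and to between 19.2 and 32.2 in the 4 numbered 3 or 4. The labels name no batch for these numbers. Genotypes were also compared within each pair of numbers. This division was made with the values of the granule genes known, so its counts and fold changes describe these libraries and are no independent test of the 9 genes.

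Within libraries 1 and 2 none of the 9 genes and none of 14252 genes in all was called (edgeR's quasi-likelihood test). The log2 fold changes lay between -0.22 for Ctsg and 0.98 for Mpo. In RPKM only Ltf did not overlap between these libraries, with Flt3 ITD/ITD above, where 18.1% of all genes stood above and 19% below. Within libraries 3 and 4 the call rule took 3 of the 4 primary genes as higher, against 2.71% of 13970 genes, and all 5 later genes as lower, against 5.82%, which is 8 of 9 against 8.53% in either direction. Elane was the exception, with a log2 fold change of 1.67. The called primary genes had log2 fold changes of 1.85 for Mpo, 1.75 for Prtn3 and 2.04 for Ctsg. The later genes had -1.63 for Camp, -1.89 for Ngp, -2.09 for Ltf, -2.18 for Lcn2 and -3.41 for Chil3. In RPKM the genotypes did not overlap for any of the 9 genes within libraries 3 and 4. By that measure 47.2% of all genes were higher and 13.8% lower in Flt3 ITD/ITD.

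The difference between the pairs was also fitted as an interaction, under the same limit. The call rule took 4 of the 9 genes, all of the later class, against 1.49% of 13926 genes called in that direction, 0.409% in the other and 1.9% in either. The log2 fold change in libraries 3 and 4 minus that in libraries 1 and 2 was -2.58 for Ltf, -1.59 for Camp, -2.02 for Ngp and -2.12 for Lcn2. Of the genes not called, Chil3 had -3.27, Ctsg 2.25, Prtn3 1.72, Elane 0.96 and Mpo 0.86. With the pairs entered as a factor and all 8 libraries kept, none of the 9 genes was called.

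**Figure D3:**
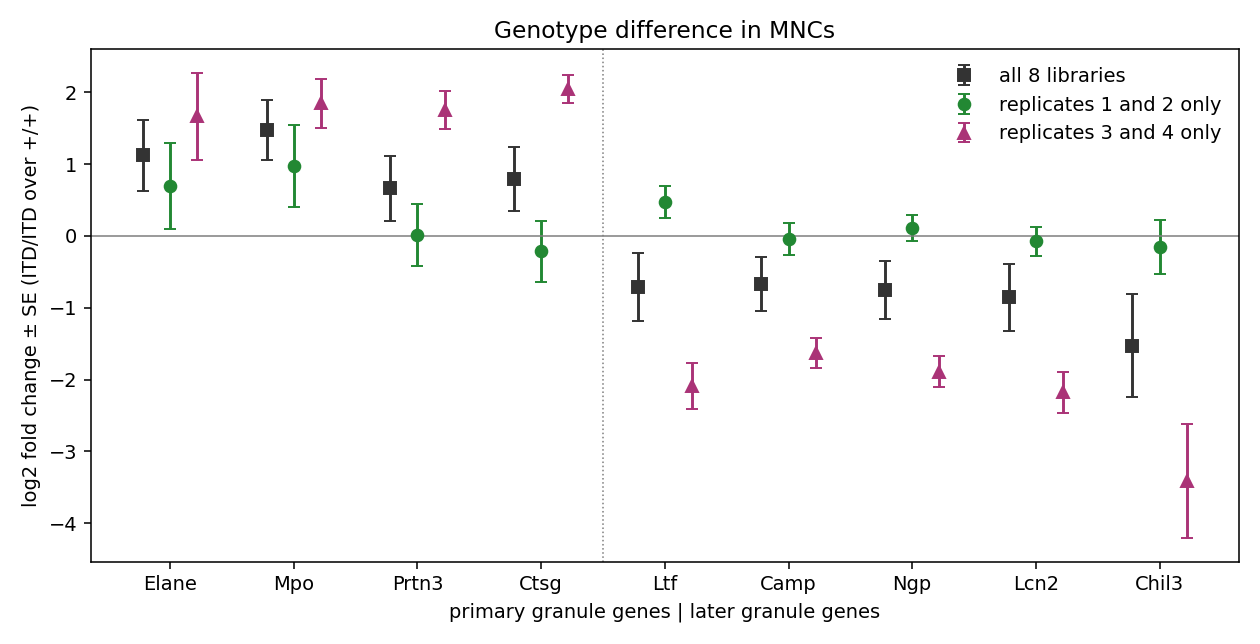
Log2 fold change of each granule gene between genotypes in MNCs, Flt3 ITD/ITD over Flt3+/+, with its standard error from edgeR, for all 8 libraries (squares), for replicates 1 and 2 (circles) and for replicates 3 and 4 (triangles). Primary genes stand left and later genes right of the dotted line; the circles of the later genes lie between -0.15 and 0.48 and their triangles between -3.41 and -1.63.

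Other contents of the MNC libraries differed between the same libraries. The 7 erythroid genes in the table, hemoglobin alpha (Hba-a2) and Alas2 among them, summed to 60.6, 21797, 86389.9 and 77955 RPKM in Flt3+/+ libraries 1 to 4 and to 6688, 12486, 1339 and 5115 in Flt3 ITD/ITD libraries. Flt3+/+ library 1 was thus almost without erythroid RNA and libraries 3 and 4 were rich in it, and RPKM of every other gene is set against this total. With TMM factors, which reduce that dependence, the median log2 fold change of all genes was -0.01 over all libraries and 0.03 within libraries 3 and 4, and with totals alone it was 0.18 and 0.44. The 4 primary genes kept a positive sign and the 5 later genes a negative one under both scalings, in all libraries and within libraries 3 and 4. This division did not hold within libraries 1 and 2. With TMM factors 5 of the genes were positive and 4 negative there, with medians of 0.36 for the primary and -0.05 for the later class. The 11 genes of the B cell list summed to 19131 RPKM in Flt3 ITD/ITD library 3, most of it Cd74, and to 3019 or less in the other 7 MNC libraries. The 11 monocyte and macrophage genes summed to 2124 to 3918 RPKM in Flt3+/+ against 3797 to 5464 in Flt3 ITD/ITD MNCs, and the 14 pan-leukocyte genes to 11857 to 15450.3 and 9969 to 13721. The part of these contents in the granule result was not tested.

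Genes with related roles were read from lists. A list of 10 other genes was drawn up for primary granules and protease handling. Not all of them encode granule proteins or proteins that handle proteases, Ms4a3 and Hdc among them. In MNCs 5 had a positive and 5 a negative log2 fold change, with a median of -0.04 and none called. These values describe the mixed list and not primary granule genes alone. Prss57, a serine protease of the same granules, had 9.67 ± 1.96 RPKM in Flt3+/+ against 16.3 ± 2.14 in Flt3 ITD/ITD MNCs (SD, n = 4, log2 fold change 0.56, edgeR adjusted p = 0.415) with no overlap. The values of Plac8, at 1148 ± 349 and 1724 ± 207, did not overlap either, and 5.72% of all genes did not overlap in that direction. Hdc, the histamine-making enzyme, had 109 ± 63.3 and 41.8 ± 30.3.

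Of 23 other genes of later granules and mature neutrophils 21 had a negative log2 fold change, as did 50.5% of all genes, with a median of -0.75 against -0.01 for all genes. No gene of the list was called, and 5 of the 23 were lower at an unadjusted p below 0.05, against 5% of all genes. The list summed to 26501, 16462, 18084 and 19397 RPKM in Flt3+/+ libraries 1 to 4 and to 16829, 17729, 4634 and 6189 in Flt3 ITD/ITD libraries, so that Flt3 ITD/ITD libraries 1 and 2 lay within the Flt3+/+ range and libraries 3 and 4 below it. Among the genes with the smallest p were Hp (haptoglobin), at 1180.0 ± 278 and 697 ± 281 RPKM, Ceacam10, at 94.6 ± 16.4 and 37.9 ± 29.4, and Itgam, the CD11b chain of the integrin Mac-1, at 112 ± 3.65 and 81.5 ± 25.8. Ceacam10 and Itgam did not overlap between genotypes, against 0.984% of all genes in that direction. All 12 neutrophil surface receptors had a negative log2 fold change, with a median of -0.77, and 4 were lower at an unadjusted p below 0.05, against 5% of all genes, while none was called. Cxcr2, the receptor for the chemokines that recruit neutrophils, had 79.3 ± 26.9 and 40.3 ± 22.7 RPKM, the decoy receptor Il1r2 had 148 ± 61.3 and 50.3 ± 38.1, and Clec4d had 30.0 ± 13.2 and 12.2 ± 8.80.

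The 15 granulocyte transcription factors were divided, with 6 positive, 9 negative and a median of -0.03. Cebpa, which is needed for the step to granulocyte progenitors, had 2.57 ± 0.50 and 4.28 ± 0.96 RPKM without overlap, where 5.72% of all genes lay apart in that direction (edgeR adjusted p = 0.526), Irf8, a factor of monocytes, had 47.6 ± 33.2 and 78.3 ± 23.0, and Lef1 had 6.73 ± 4.57 and 3.17 ± 0.75. Of 10 monocyte and macrophage genes tested 8 had a positive log2 fold change, 5 of them at an unadjusted p below 0.05, against 5.39% of all genes, and none was called. Cx3cr1, the fractalkine receptor, was at 13.3 ± 5.86 and 48.0 ± 21.4 RPKM (adjusted p = 0.397) and Csf1r at 32.8 ± 10.2 and 56.8 ± 11.2, both without overlap, as were 5.72% of all genes in that direction. All 10 genes of dividing cells had a negative log2 fold change, with a median of -0.75, and 7 were lower at an unadjusted p below 0.05, against 5% of all genes, with none called. Among them was Cdk1 at 101 ± 35.4 and 50.0 ± 6.86. Stem and progenitor genes were positive in 5 of 7, with Cd34 at 14.5 ± 5.79 and 43.4 ± 24.8 RPKM. Markers of the other cell types had no call either, and their log2 fold changes were negative in 10 of 11 B cell genes, all 7 erythroid genes, 5 of 8 T and NK cell genes and 6 of 9 genes of eosinophils, basophils and mast cells. Of the other members of the granule gene families, Chil4 and Gzmb among them, 4 of 5 tested were negative.

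ECs and MSCs were used to see how much granule RNA stands in cells sorted as CD45-. Each of the 9 genes was higher in Flt3+/+ MNCs than in Flt3+/+ ECs and than in Flt3+/+ MSCs at an edgeR adjusted p below 0.1 in a model of all 28 libraries, where 19.3% and 18.2% of 16897 genes were. Elane, Mpo, Prtn3, Ctsg, Ltf and Chil3 failed the filter on low counts within ECs and within MSCs. They entered this model through the MNC libraries, so the outcome was largely set in advance. The calls against MNCs therefore describe levels and are no independent support. In Flt3 ITD/ITD mice all 9 were higher in MNCs than in MSCs, against 17.4% of genes, and 6 of 9 were higher than in ECs, against 18.9%. Camp, Ngp and Chil3 were the exceptions, with log2 differences of 3.72, 4.80 and 3.55 and adjusted p-values of 0.258, 0.168 and 0.299. Without Flt3 ITD/ITD EC library 2, all 9 were called.

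That library held nearly all granule RNA of the 10 EC libraries. It had 181837 counts of Ngp, 57375 of Camp, 41538 of Chil3, 14648 of Lcn2 and 6039 of Ltf. Its primary genes were far lower, at 439 counts of Ctsg, 284 of Prtn3, 245 of Mpo and 0 of Elane. Set against the mean of Flt3 ITD/ITD MNCs, the later genes stood at between 2.81% for Ltf and 42.4% for Chil3, with Camp at 37.3%, Ngp at 17.8% and Lcn2 at 15.4%. The primary genes stood at 7.03% for Ctsg, 3.66% for Prtn3 and 0.190% for Mpo. The 14 pan-leukocyte genes stood at a median of 3.87% of their MNC level, 13 of them with more than 3 counts, and Ptprc had 778 counts, or 3.05%. The neutrophil genes S100a8 and Fcnb were at 33.2% and 33.6%, while Mmp8 and Mmp9, proteases of late granules, had 0 counts. Ms4a3, the gene most like the primary class in MNCs, stood at 22.2%, while Prss57 stood at 0.123%, Lyz2, which encodes lysozyme, at 0.559% and Retnlg at 0.635%.

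The other 9 EC libraries held at most 627 counts of any granule gene. In Flt3+/+ ECs the 4 primary genes had 0, 1 or 2 counts in each library. The later genes were uneven between libraries. Camp had 420 counts in library 1, Ngp 627 in library 5 and 505 in library 2, and Lcn2 461 in library 5 and 293 in library 1. Flt3+/+ EC library 1 also held other neutrophil genes, with 5203 counts of S100a8, 1346 of S100a9 and 274 of Fcnb. These stood at 1.32, 0.569 and 3.90% of the Flt3+/+ MNC mean, while Retnlg, Mmp8 and Ms4a3 had 0 counts. In that library the 7 erythroid genes summed to 3535 RPKM. Flt3+/+ EC library 3 had 0 counts of all 9 genes in 14483259 counts. Flt3 ITD/ITD EC library 3 had 412 counts of Elane with 0 of Mpo, 1 of Prtn3 and 0 of Ctsg, so that Elane stood at 1.11% of its MNC level without the other primary genes. Ptprc had 3 counts or fewer in these 9 libraries.

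**Figure D4:**
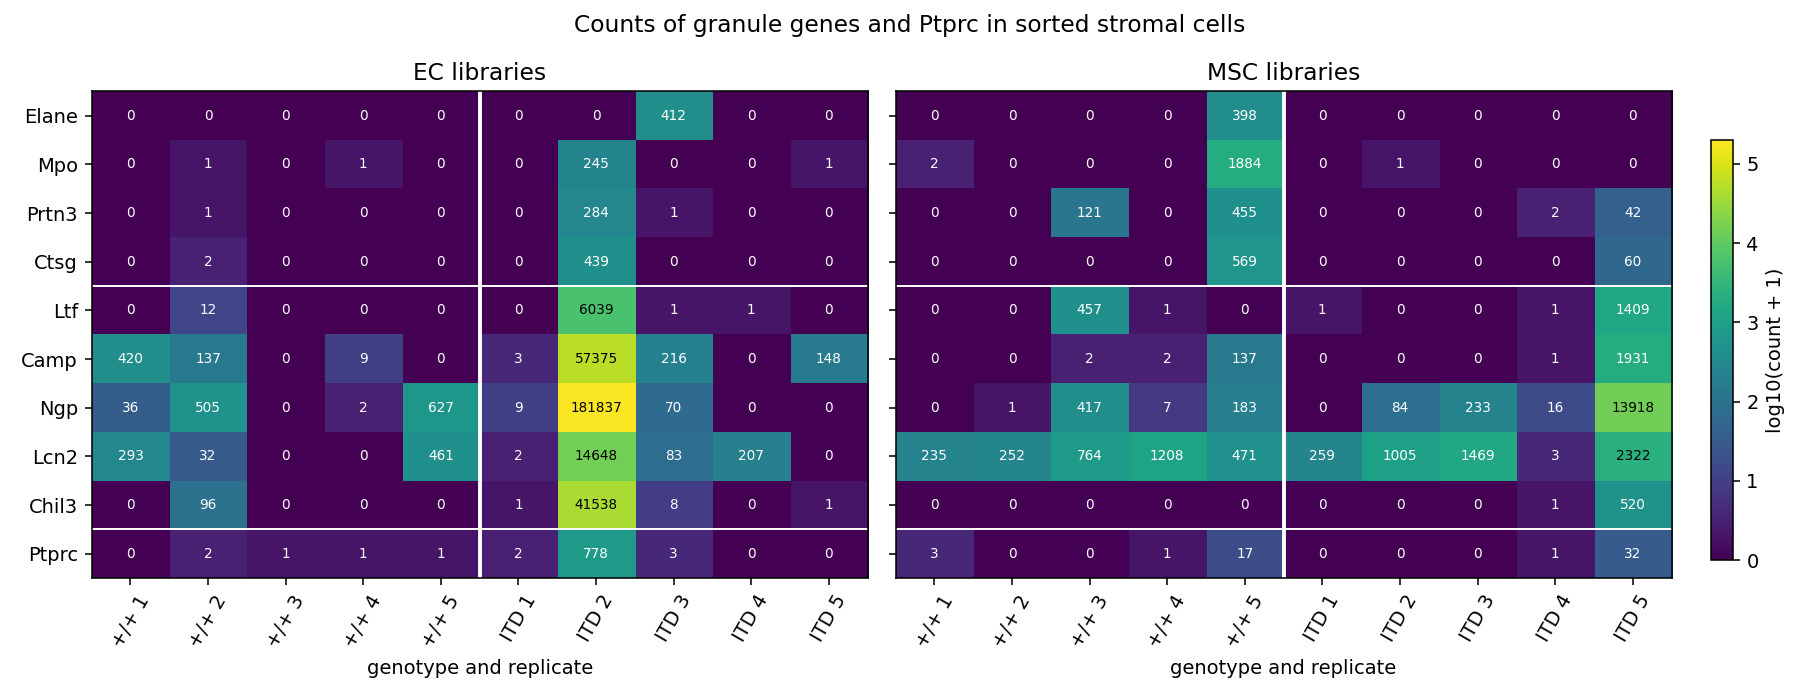
Counts of the 9 granule genes and Ptprc in the 10 EC (left) and 10 MSC (right) libraries, printed in each cell and coloured by log10(count + 1), with Flt3+/+ libraries left and Flt3 ITD/ITD libraries right of the vertical line. Flt3 ITD/ITD EC library 2 stands out with 181837 counts of Ngp, and MSC libraries numbered 5 hold mostly primary genes in Flt3+/+ and mostly later genes in Flt3 ITD/ITD.

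In MSCs granule RNA stood in both libraries numbered 5, and the classes were parted between them. Flt3+/+ MSC library 5 had all 4 primary genes, with 1884 counts of Mpo, 569 of Ctsg, 455 of Prtn3 and 398 of Elane, which was 4.33, 15.9, 9.20 and 2.22% of the Flt3+/+ MNC mean. Its later genes had 0 counts of Ltf and Chil3, 183 of Ngp and 137 of Camp, none above 0.290% of the MNC level, and Ptprc had 17 counts. Flt3 ITD/ITD MSC library 5 had 13918 counts of Ngp, 2322 of Lcn2, 1931 of Camp, 1409 of Ltf and 520 of Chil3, which was between 1.54 and 7.07% of the MNC level. Its primary genes had 60 counts of Ctsg, 42 of Prtn3 and 0 of Mpo and Elane, and Ptprc had 32 counts. The 14 pan-leukocyte genes stood at medians of 1.57 and 4.04% of their MNC level in these libraries and at 0.272% or below in the other 8.

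Lcn2 was present in MSCs beyond these libraries. It had 22.9, 8.97, 30.5, 49.6 and 17.0 RPKM in Flt3+/+ against 10.6, 45.1, 52.6, 0.14 and 261 in Flt3 ITD/ITD MSC libraries 1 to 5. Of the 10 libraries 9 had at least 235 counts and Flt3 ITD/ITD library 4 had 3. In MSC libraries such as Flt3+/+ 4 (1208 counts) and Flt3 ITD/ITD 3 (1469 counts) it stood with 0 counts of each primary gene, 7 and 233 of Ngp and at most 2 of Camp. Other neutrophil genes were present in the second of these, with 3590 counts of S100a8, 2600 of S100a9, 515 of Retnlg and 121 of Mmp9, together with 526 of the leukocyte gene Tyrobp, whereas Flt3+/+ library 4 had 1, 3, 0, 19 and 0. In ECs Lcn2 was at 0 to 2 counts in 4 of the 10 libraries. Apart from Lcn2, the 8 MSC libraries not numbered 5 held few granule counts. The highest were 457 of Ltf and 417 of Ngp in Flt3+/+ library 3. The 233 of Ngp in Flt3 ITD/ITD library 3 and 121 of Prtn3 in Flt3+/+ library 3 followed.

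Genotypes could be compared in the stromal cells only for the genes that passed the filter on low counts, which were Camp, Ngp and Lcn2 in ECs and Ngp and Lcn2 in MSCs. None was called, where 0.0081% of 12351 genes were in ECs and 0.0295% of 13574 in MSCs. At an unadjusted p below 0.05 Ngp passed in both, as higher, against 2.5% and 2.28% of all genes. The log2 fold change of Ngp was 7.10 with a standard error of 3.13 in ECs (edgeR adjusted p = 0.98), and without Flt3 ITD/ITD library 2 it was -3.19. In ECs Camp and Lcn2 also turned, from 5.71 to -1.13 and from 3.80 to -0.48, without that library. In MSCs Ngp had 5.99 with a standard error of 2.56 (adjusted p = 0.999), and -0.52 without Flt3 ITD/ITD library 5, while Lcn2 had 1.5 (standard error 1.13, adjusted p = 0.999), and 0.12 without that library. The genotype difference did not pass as different between ECs and MSCs for any of the 3 genes tested (edgeR interaction, 0.00659% of 15174 genes passed), with standard errors from 2.56 to 3.56 on the log2 scale.

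Summed over the 9 genes, RPKM in ECs averaged 0.0430% of the MNC level for Flt3+/+ libraries and 4.04% for Flt3 ITD/ITD ones, and 0.0345% in the latter without library 2. In MSCs the averages were 0.0669% and 0.779%, and 0.0485% and 0.0603% without the libraries numbered 5.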

How the data were processed

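Bulk RNA sequencing had been done on 28 libraries, made with the SMARTer Ultra Low kit from sorted cells. Single-end reads were aligned with Bowtie against mm10 transcripts, those without a unique position were removed, and the authors deposited the estimated counts of RSEM, unnormalized and in whole numbers. The authors deposited RPKM for the same genes and libraries to 2 decimals. Versions of Bowtie and RSEM are not given in the sources used here.

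Groups were taken from the labels. Genotypes were compared within each population with the quasi-likelihood test of edgeR 4.0.16 in R 4.3.3, after TMM scaling and removal of low counts by filterByExpr. Benjamini-Hochberg adjustment ran over all genes tested, with calls at an adjusted p below 0.1. Populations were compared in 1 model of 6 groups. DESeq2 1.42.0, edgeR's exact test, other scalings, no filter, a replicate block, a pan-leukocyte covariate and leaving out each library were alternatives. Exact permutation tests over libraries, two-sided, were used for RPKM. The quasi-likelihood test and DESeq2, as used between genotypes within a population, were checked on simulated data. The other tests were not.

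The genes, lists and divisions of libraries were chosen with earlier results of these data known. Of 186 listed entries 4 were not found. Genes named from a list are the up to 3 of its members with the smallest unadjusted p in MNCs, and those named as alike have the highest correlation with the mean of a class among genes averaging 1 RPKM or more. Gene positions and promoters are those of RefSeq for GRCm38.p6, the build of the authors' transcripts, and older symbols were matched through RefSeq synonyms. Over all genes tested, same-numbered libraries did not deviate together (the correlation of deviations was at most 0.0754 in any population), so numbers were not taken as pairs. Immediate-early genes in MNCs did differ by library number in both genotypes, as given above.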

Additional observations from a re-analysis of the deposited data

Results flagged for a closer look

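In groups of 4 or 5 libraries, the highest or lowest value was tested for its distance from the rest with Dixon's ratio at the 95% level, in 52 groups with at least 1 library over 3 counts. The test marked 28 groups, and chance alone marks about 5% of groups of normally distributed values. That rate does not hold for most of the groups of ECs and MSCs, where the other libraries stood at or near 0 counts and a single library with counts is marked whatever its level. Flt3 ITD/ITD EC library 2 was the highest of its group in 9 of them, with 3.06 RPKM of Mpo, 10.7 of Prtn3, 14.3 of Ctsg, 70.6 of Ltf, 3226 of Camp, 5045 of Ngp, 567 of Lcn2, 858 of Chil3 and 4.57 of Ptprc. Flt3 ITD/ITD MSC library 5 was highest for Prtn3 (4.66 RPKM), Ctsg (5.68), Ltf (47.7), Camp (315), Ngp (1119), Lcn2 (261), Chil3 (31.1) and Ptprc (0.53). Flt3+/+ MSC library 5 was highest for Elane (13.2 RPKM), Mpo (21.9), Prtn3 (15.9), Ctsg (17.3) and Camp (7.17).

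Single genes stood apart in other libraries. Elane was at 15.7 RPKM in Flt3 ITD/ITD EC library 3, Ltf at 5.50 in Flt3+/+ MSC library 3, Camp at 53.4 in Flt3+/+ EC library 1, and Ltf and Chil3 at 0.19 and 2.68 in Flt3+/+ EC library 2. Ptprc was lowest in Flt3 ITD/ITD MNC library 1, at 126 RPKM.

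The genotype difference in MNCs differed between libraries 3 and 4 and libraries 1 and 2 for Ltf by -2.58, for Camp by -1.59, for Ngp by -2.02 and for Lcn2 by -2.12 on the log2 scale, by edgeR's interaction test. The division of libraries was made with these values known, so the difference is a description and not an independent test.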

How the results depend on the processing

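The results for the 9 granule genes and the counts of called genes were recomputed under other settings. Counted as 1 result in 1 setting there were 460 comparisons, 246 of them with 1 library left out. Of the 460, 382 kept direction and side of the threshold or stayed near the value given. These include genes that were not called and stayed so, and counts of 0 that stayed 0. The count of all genes called between genotypes depended on the tool: in MNCs it was 2, and 457 by DESeq2, 164 by edgeR's exact test and 0 at an adjusted p below 0.05, with a replicate block or with the pairs of numbers as a factor. In ECs it was 1, and 390 by DESeq2, 16 by the exact test and 0 at an adjusted p below 0.05, without the filter, with the block or with a pan-leukocyte covariate. In MSCs it was 4, and 220 by DESeq2, 19 by the exact test, 2 at an adjusted p below 0.05 or without the filter, and 0 with the block or the covariate. Of the granule genes in MNCs DESeq2 and the exact test called 1. Leaving out 1 library gave 0 to 1 genes called in MNCs, 0 in ECs and 0 to 2 in MSCs. It gave 0 to 2 granule genes without overlap in MNCs, for which the share of all genes is not given here. In ECs log2 fold changes reversed with the covariate, to -2.03 for Camp, -5.23 for Ngp and -0.31 for Lcn2. They also reversed without Flt3 ITD/ITD library 2, and over all libraries left out in turn ran from -1.13 to 7.85 for Camp, -3.19 to 7.79 for Ngp and -0.48 to 4.73 for Lcn2. In MSCs Ngp reversed without Flt3 ITD/ITD library 5 and ran from -0.52 to 7.46, and Lcn2 from 0.12, without the same library, to 1.87. The replicate block changed no call of a granule gene between genotypes in any population, and not every library correlated best with its own number.

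Other alternatives were chosen after seeing the data. MNC libraries 1 and 2 alone gave 0 genes called, 1 granule gene without overlap and opposite signs for Ctsg (-0.22), Ltf (0.48) and Ngp (0.11). Libraries 3 and 4 alone gave 1192 genes called, 8 granule genes called and 9 without overlap. Of all genes, 47.2% were without overlap as higher and 13.8% as lower within libraries 3 and 4. Within libraries 1 and 2 these shares were 18.1% and 19%. MSCs without both libraries numbered 5 gave 0 genes called, with -0.40 for Ngp and -0.0073 for Lcn2. The cause of these changes was not tested, other than that the settings use fewer libraries. Granule RNA at 3 counts or fewer per library was not detectable.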
